A study of Mus musculus with 12 samples.

Results

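Overexpression of Kitl in the mouse pancreatic stellate line ImPSC-1 was compared with the hairpin control of the same line. The comparison used 6 of the 12 polyA RNA-seq libraries, picked by their titles: the 3 of Kitl_OE (genotype Kitl overexpression) and the 3 of shCtrl (genotype WT, described with the hairpin vector name PLKO-1). The 3 libraries of Egfp_OE (genotype Egfp overexpression), the line made as the overexpression control, are set beside them, and the 3 of the Kitl knock-down line enter only the depth range, the scaling of CPM and alternative fits over more libraries. All groups share the immortalised parent line, labelled as pancreatic mesenchymal cells. They are derivatives of 1 line. The sources used here do not state whether each is a clone or a pool, or which vector and promoter drive Kitl and Egfp. The descriptions carry P numbers 18, 19 and 20 for Kitl_OE, 14, 15 and 16 for shCtrl, and 17, 18 and 19 for Egfp_OE. What P stands for is not given, but its ranges do not overlap between Kitl_OE and shCtrl, so Kitl level, construct and P number cannot be told apart in this comparison. Nothing in the labels ties the libraries of a line to separate cultures, and p-values therefore cover the spread among these libraries, which may be technical.

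Kitl encodes KIT ligand, or stem cell factor, a cytokine made as a membrane-bound and a shed form that signals through the receptor tyrosine kinase KIT on mast cells, blood progenitors, germ cells and melanocytes. Pancreatic stellate cells are mesenchymal cells that store retinoids at rest. When activated they turn into matrix-producing, contractile myofibroblasts marked by smooth muscle actin and fibrillar collagens.

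Libraries held between 24979742 and 33517686 reads in genes. Log2(CPM + 1) values (CPM, counts scaled by depth and composition) correlated at 0.993 to 0.997 among Kitl_OE libraries, 0.905 to 0.939 between Kitl_OE and shCtrl libraries, 0.974 to 0.996 among shCtrl libraries and 0.911 to 0.99 between shCtrl and Egfp_OE libraries. Egfp_OE replicate 2 had a spike-in share of 1.35%, against 0.446 to 0.684% in the other 11 libraries. Of 14252 genes tested between Kitl_OE and shCtrl, 7593 (53.3%) passed an adjusted p of 0.05 in edgeR's quasi-likelihood test, 3798 higher in Kitl_OE (26.6%) and 3795 lower (26.6%), with a median log2 fold change of -0.01. Every count of members below is to be read against these shares, or for another fit against the totals of that fit. Of the genes that passed, 1600 were higher and 1573 lower by a log2 change of at least 1. With libraries scaled by the spike-in RNAs instead, the median log2 fold change of all genes was -0.32, and 1609 genes were higher against 5205 lower. Among the genes that passed, shCtrl replicate 1 was the shCtrl library farthest from its group for 71.8%, and Kitl_OE replicate 3 was the farthest Kitl_OE library for 52.7%. Between Egfp_OE and shCtrl the same test called 0 of 14367 genes (0%), with 2352 at an unadjusted p under 0.05, while DESeq2 called 610. Between Kitl_OE and shCtrl, leaving out Kitl_OE replicate 1, 2 or 3 gave 2798, 2816 and 3508 genes higher and 2805, 2828 and 3433 lower. Leaving out shCtrl replicate 1, 2 or 3 gave 4692, 2634 and 3173 higher and 4478, 2821 and 3317 lower. The fit over all 12 libraries gave 2413 higher and 2519 lower.

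Kitl (chromosome 10, 100015630 to 100100416, plus strand, GRCm38) was read at 126, 115 and 129 CPM in Kitl_OE, against 73.6, 74.1 and 76.7 CPM in shCtrl and 72.3, 30.4 and 72.5 CPM in Egfp_OE. All 3 Kitl_OE libraries lay above all 6 control libraries, and Egfp_OE replicate 2 was the lowest. Kitl rose in Kitl_OE over shCtrl by 0.70 ± 0.08 on the log2 scale (SE, edgeR adjusted p = 0.000635), a 1.65-fold difference of mean CPM, and the 2-sided exact permutation p over the 6 libraries was 0.1, the smallest that 3 against 3 allows. Under spike-in scaling the log2 difference was 0.39 (adjusted p = 0.0457). Gene counts do not separate the introduced copy from the endogenous gene. Kit, the receptor, had 1 read in all 3 Kitl_OE libraries and 3 in all 3 shCtrl libraries, a count ratio of 3.10 in favour of shCtrl (exact counting interval 0.249 to 163), and the filter on low counts left it out of the fit.

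Of 26 tested genes of the KIT pathway, 10 rose and 9 fell in Kitl_OE, with a median log2 change of -0.02. Under spike-in scaling the counts were 6 and 12. Ptpn6, the phosphatase SHP-1 that damps KIT signalling in blood cells, was at 10.1, 8.78 and 7.09 CPM in Kitl_OE against 1.05, 0.793 and 0.553 in shCtrl, a rise of 3.39 ± 0.29 (adjusted p = 0.000307). The SRC-family kinase Lyn rose by 1.54 and the adaptor Gab1 by 1.27, while the ubiquitin ligase Cbl fell by 0.93. Among 20 targets and feedback inhibitors of ERK signalling, 4 rose and 7 fell, and 7 rose when shCtrl replicate 1 was left out. Under spike-in scaling 2 rose and 9 fell, and in the fit over all 12 libraries 2 rose and 3 fell. The AP-1 subunit Fosl1 was at 15.3, 25.5 and 40.2 CPM in Kitl_OE against 88.8, 146 and 151 in shCtrl, a log2 change of -2.27 ± 0.38 (adjusted p = 0.00322). The ERK phosphatases moved both ways: Dusp5 fell by 1.97, and Dusp4 rose by 1.32 and Dusp6 by 0.80.

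The contractile programme was higher in Kitl_OE. Of 31 tested members, 25 rose and 1 fell (2 fell without shCtrl replicate 1), with a median log2 change of 1.44. Under spike-in scaling 17 rose and 2 fell, with a median of 1.12. Members summed to 12805, 11689 and 18714 TPM in Kitl_OE, against 6224, 5468 and 5136 TPM in shCtrl and 4541, 3191 and 3936 TPM in Egfp_OE, with no overlap of Kitl_OE and either control. Acta2, smooth muscle alpha-actin and the usual sign of stellate activation, was at 2602, 1903 and 3857 CPM in Kitl_OE, against 531, 231 and 169.6 in shCtrl and 215, 132 and 89.96 in Egfp_OE. All Kitl_OE libraries were above all controls, replicate 3 was the highest of its group and shCtrl replicate 1 the highest of the controls. The rise over shCtrl was 3.14 ± 0.51 (SE, adjusted p = 0.00293). Actg2, the enteric smooth muscle actin, was at 974, 774 and 1313 CPM in Kitl_OE against 90.6, 36.0 and 27.7 in shCtrl, a rise of 4.28 ± 0.52 (adjusted p = 0.00111). Acta1, the skeletal actin, was at 7.95, 6.89 and 13.7 CPM in Kitl_OE against 0.461, 0.238 and 0.213 in shCtrl, a rise of 4.89 ± 0.43 (adjusted p = 0.000324). These actin genes are near-identical in coding sequence, and the counting could split their reads. The regulatory light chain Myl9 (3.06), its kinase Mylk (3.24), smooth muscle myosin Myh11 (3.19), the actin-binding genes Tagln (2.67) and Cnn1 (2.39), the filament nucleator Lmod1 (2.96), the muscle intermediate filament Des (2.78) and the collagen-binding integrin Itga1 (3.12) rose too, in log2 units.

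Regulators of the contractile genes differed among themselves. Mkl1, an actin-sensing coactivator of SRF, was at 291, 257 and 307 CPM in Kitl_OE against 124, 98.6 and 87.8 in shCtrl, a rise of 1.44 ± 0.15 (adjusted p = 0.000546). Srf itself rose by 0.48 (adjusted p = 0.0394), and Mkl2 differed by 0.16 without passing. Myocd, the smooth muscle coactivator, went the other way, with 0.0391, 0 and 0 CPM in Kitl_OE, against 0.890, 4.17 and 5.10 in shCtrl and 0.143, 0.0383 and 0.269 in Egfp_OE. It had 1 read in Kitl_OE, so that the count ratio in favour of shCtrl was 260 with an exact counting interval of 46.3 to 10314, and Egfp_OE was low as well. Tpm4, a cytoskeletal tropomyosin, was at 853, 847 and 1128 CPM in Kitl_OE against 994, 1392 and 1560.5 in shCtrl, and did not pass (log2 -0.50, adjusted p = 0.0672).

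SRF binds a sequence known as the CArG box. A match to it on either strand within 250 bases before a RefSeq start site was found for 8 of the 26 contractile genes with a promoter in RefSeq (30.8%), against 439 of 27025 genes of the table (1.62%). The sequences of a skeletal actin and a light chain that rose are shown because they carry such a match, in capitals, on GRCm38.p6. The Acta1 window is chr8:123894776-123895025 (minus strand), with the match first met 73 bases before the start, and the Myl9 window is chr2:156775214-156775463 (plus strand), with the match 161 bases before it.
Acta1: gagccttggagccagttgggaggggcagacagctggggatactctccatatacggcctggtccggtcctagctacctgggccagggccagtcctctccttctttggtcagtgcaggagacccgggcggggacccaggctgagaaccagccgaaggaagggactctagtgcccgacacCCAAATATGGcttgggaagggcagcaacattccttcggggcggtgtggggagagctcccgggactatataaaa
Myl9: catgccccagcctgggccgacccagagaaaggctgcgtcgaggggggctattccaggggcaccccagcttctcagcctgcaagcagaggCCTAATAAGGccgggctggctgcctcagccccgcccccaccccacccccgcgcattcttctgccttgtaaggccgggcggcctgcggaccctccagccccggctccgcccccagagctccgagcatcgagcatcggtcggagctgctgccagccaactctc
A match, here and below, is a description of these letters and not a site of binding or a cause. The lists were chosen as genes of the programmes named, so their shares of matches are no result of these libraries. Cnn2, Fhl1, Fhl2, Srf, Vcl and the unexpressed Actc1 also held one, and the windows of the other members did not.

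**Figure D1:**
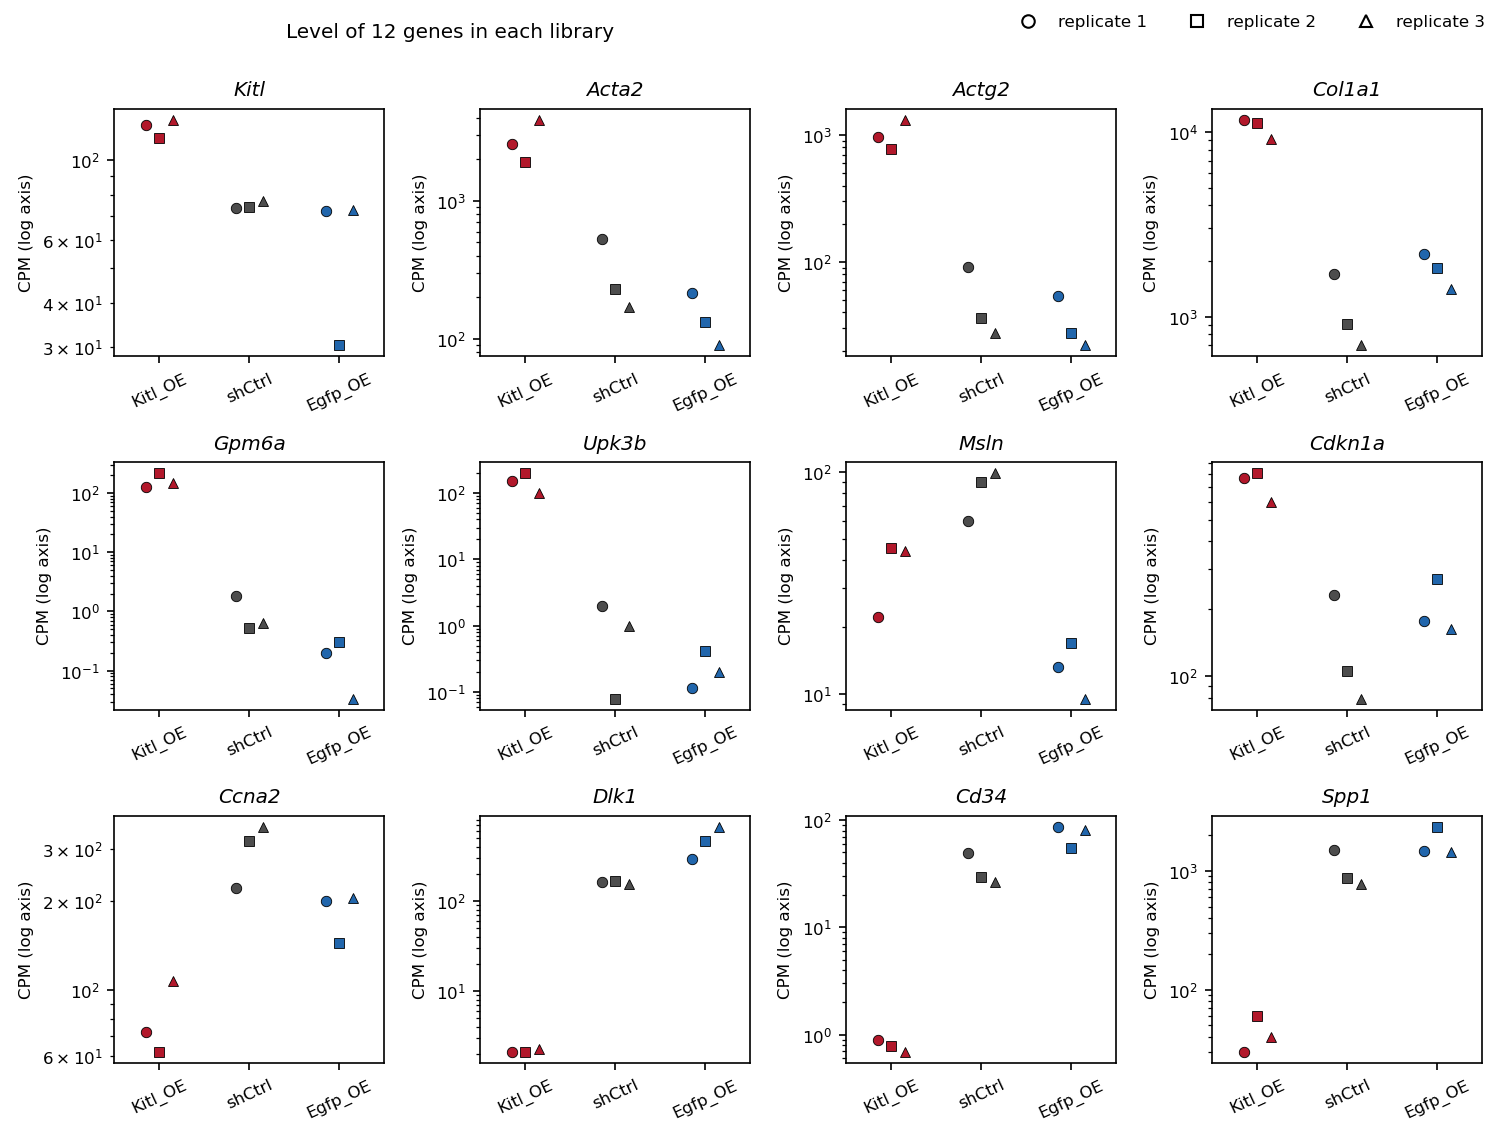
CPM on a log axis of 12 genes in each library of Kitl_OE, shCtrl and Egfp_OE, with 1 marker shape per replicate. Kitl_OE libraries stand above both controls for Kitl, Acta2, Actg2, Col1a1, Gpm6a, Upk3b and Cdkn1a, below both for Ccna2, Dlk1, Cd34 and Spp1, and between them for Msln.

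Fibrillar collagen genes followed the contractile genes: of 9 tested, 6 rose and 0 fell, with a median log2 change of 1.33. Col1a1 was at 11597, 11119 and 9189 CPM in Kitl_OE, against 1705, 915 and 699.7 in shCtrl and 2169, 1831 and 1404 in Egfp_OE. The rise over shCtrl was 3.24 ± 0.36 (adjusted p = 0.000707), and the groups did not overlap. On the per-length scale Col1a1 averaged 4604 ± 384 TPM in Kitl_OE and 531 ± 298 TPM in shCtrl (SD, n = 3 each). Its partner chain Col1a2 was at 5609, 5119 and 3818 CPM in Kitl_OE against 2254, 1786 and 1652 in shCtrl, a rise of 1.33 ± 0.20 (adjusted p = 0.002). Col11a1 (1.91), Col27a1 (2.30), Col5a2 (1.08) and Col5a1 (0.66) rose as well. Col3a1, at 449.5, 357 and 340.0 CPM in Kitl_OE against 297, 92.6 and 39.6 in shCtrl, did not pass (log2 1.39, SE 0.67, adjusted p = 0.123), and shCtrl replicate 1 alone came near the Kitl_OE values.

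Of 26 matricellular and matrix glycoprotein genes 6 rose and 8 fell, with a median log2 change of -0.05, and without shCtrl replicate 1, 11 rose. Dcn (decorin), a small proteoglycan that binds collagen fibrils, was at 1427, 1512 and 710.5 CPM in Kitl_OE, against 59.99, 20.2 and 19.5 in shCtrl and 83.1, 268 and 54.6 in Egfp_OE, a rise over shCtrl of 5.16 ± 0.60 (adjusted p = 0.000983). Its relatives Prelp, Fmod (fibromodulin) and Lum (lumican) rose by 5.94, 5.88 and 4.75. Elastic fibre genes went both ways: of 20 tested, 6 rose and 10 fell, and against Egfp_OE 6 rose and 6 fell of 21. They summed to 3016, 3183 and 3508 TPM in Kitl_OE against 2437, 2464 and 2258 TPM in shCtrl. In Egfp_OE the sums were 2191, 1508 and 2314 TPM, so the summed level was higher in Kitl_OE than in either control. The largest changes were falls. Fbln1 (fibulin 1) was at 1.60, 1.52 and 0.895 CPM in Kitl_OE against 107, 91.99 and 83.8 in shCtrl, a log2 change of -6.17 ± 0.23 (adjusted p = 3.55e-05). Ltbp2, a latent TGF-beta binding protein relative, fell by 4.17 and Mfap2, a microfibril component, by 3.94. Another gene of the glycoprotein list, the matricellular Thbs2, was at 3.29, 2.52 and 1.86 CPM in Kitl_OE against 326, 134 and 86.6 in shCtrl, a log2 change of -6.19 ± 0.62 (adjusted p = 0.000593). The collagen VI chain Col6a3 fell by 2.55, so collagens did not move as a single block.

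Among 24 basement membrane genes 12 rose and 5 fell, or 3 fell when any 1 Kitl_OE library was left out. Under spike-in scaling 8 rose and 7 fell. Col4a5 was at 1069, 833 and 740.0 CPM in Kitl_OE against 137, 81.9 and 78.6 in shCtrl, a rise of 3.12 ± 0.27 (adjusted p = 0.000319). The laminin chain Lama5 rose by 3.09 and Frem1 by 5.54, whereas Npnt (nephronectin, an integrin ligand) fell by 3.75. The metalloprotease inhibitor Timp3 was at 749, 777 and 664 CPM in Kitl_OE against 140.3, 60.5 and 39.0 in shCtrl, a rise of 3.16 ± 0.48 (adjusted p = 0.0023). The aggrecanase Adamts5 rose by 2.84 and the cross-linking enzyme Tgm2 by 4.12.

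**Figure D2:**
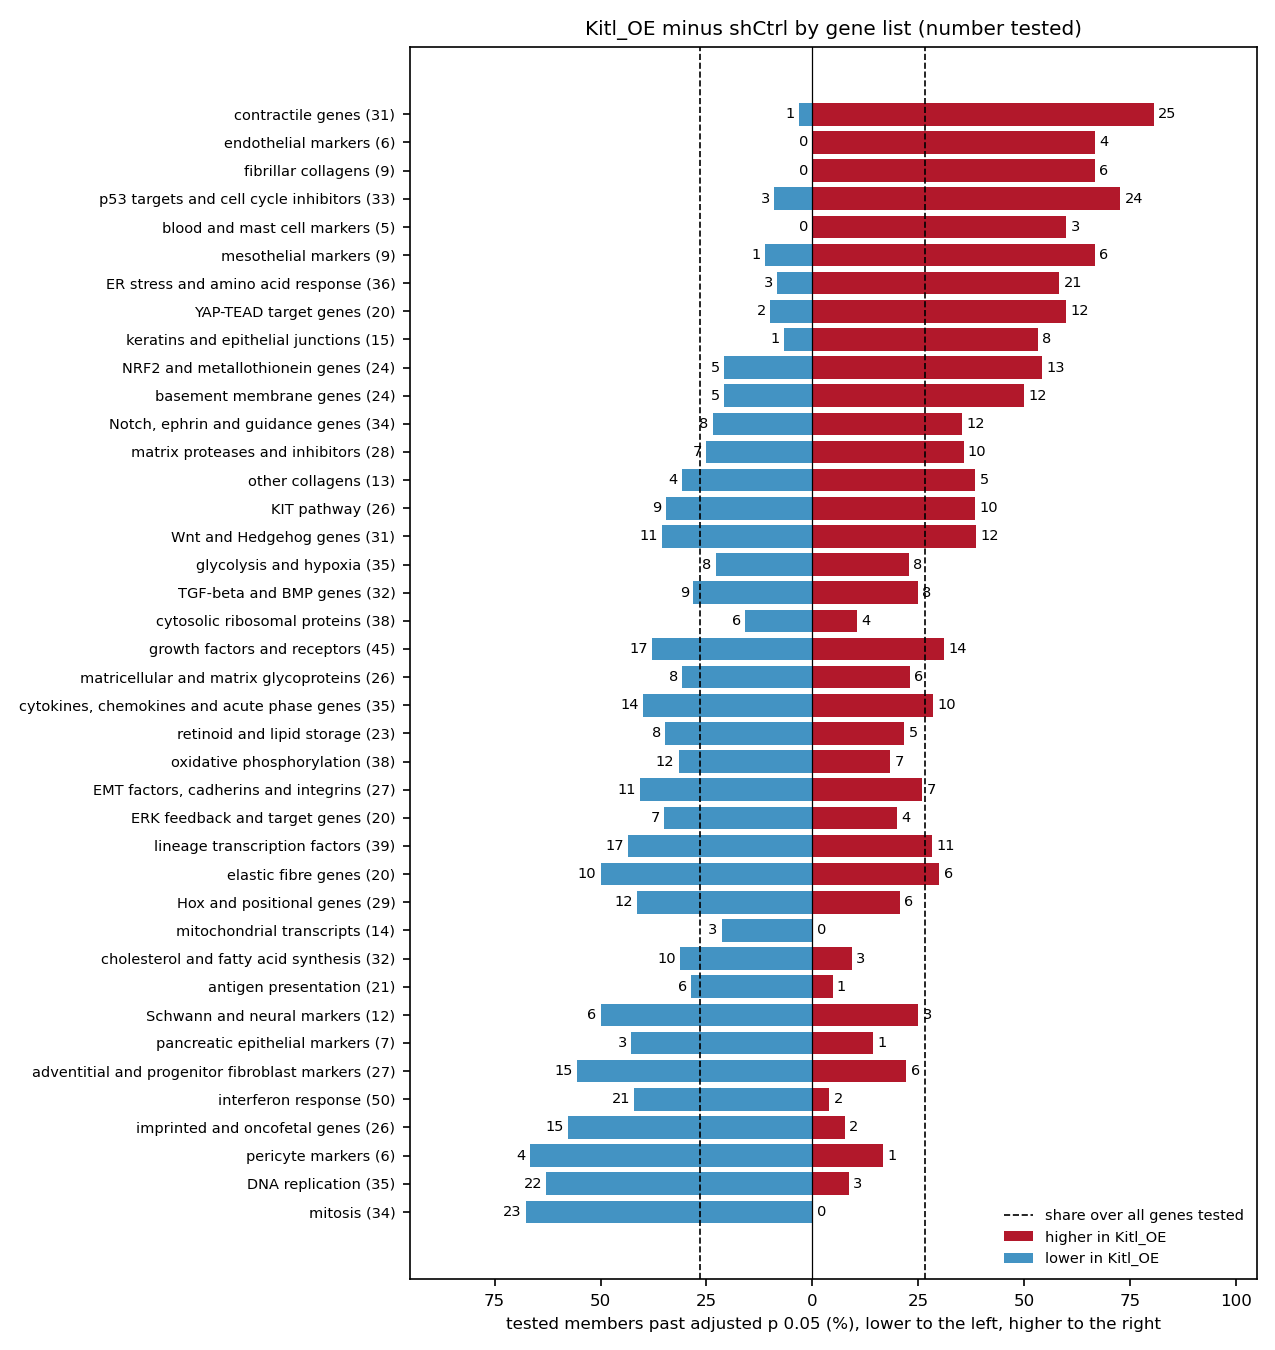
Percent of tested members of 40 gene lists that were higher (bars to the right) or lower (bars to the left) in Kitl_OE than in shCtrl at an adjusted p under 0.05, with the number of members at the bar ends and dashed lines at 26.6%, the share over all genes tested. Contractile genes have 25 higher and 1 lower, mitosis genes 0 higher and 23 lower.

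Markers of the labelled cell type were read in both lines at different levels, though Lum and Des were near the floor in shCtrl. Lum averaged 0.468 ± 0.566 TPM in shCtrl and 11.9 ± 7.22 TPM in Kitl_OE (SD, n = 3 each). Des averaged 0.863 ± 0.524 TPM in shCtrl and 5.57 ± 1.11 TPM in Kitl_OE. Pdgfra, the receptor of resting fibroblasts, was at 12.1, 17.8 and 16.1 CPM in Kitl_OE, against 104.9, 52.6 and 32.3 in shCtrl and 211, 147 and 222 in Egfp_OE, a log2 change of -2.07 ± 0.43 against shCtrl (adjusted p = 0.00773). Pdgfrb was at 352, 303 and 293 CPM in Kitl_OE against 219.8, 129 and 99.1 in shCtrl, a rise of 1.06 ± 0.28 (adjusted p = 0.0187) that did not pass under spike-in scaling, without Kitl_OE replicate 1 or without shCtrl replicate 2. With no filter on low counts it did not pass either, and its adjusted p reached 0.131 over all alternatives. Thy1, a fibroblast surface antigen, was at 3.64, 6.89 and 11.98 CPM in Kitl_OE against 70.8, 89.1 and 93.6 in shCtrl, a log2 change of -3.51 ± 0.41 (adjusted p = 0.000964). In the whole culture, fewer cells of a kind and less RNA of a gene per cell cannot be told apart.

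Of 18 mesothelial markers 9 were tested, 6 rose and 1 fell, with a median log2 change of 4.00. The filter on low counts keeps a member read in only 1 of the lines, so members near 0 in shCtrl entered through Kitl_OE. Between Egfp_OE and shCtrl 7 were tested. The median therefore describes the tested members and not all 18. All 18 markers summed to 1105, 1294 and 1033 TPM in Kitl_OE, against 217, 173 and 156 TPM in shCtrl and 171, 264 and 170.4 TPM in Egfp_OE, and the groups did not overlap. Gpm6a, a membrane glycoprotein of neurons and mesothelium, was at 126, 213 and 146 CPM in Kitl_OE, against 1.85, 0.516 and 0.638 in shCtrl and 0.1999, 0.306 and 0.0337 in Egfp_OE. It had the largest rise over shCtrl of the genes named here, 7.25 ± 0.48 (adjusted p = 0.000172). Upk3b, a uroplakin, was at 150.2, 196 and 98.2 CPM in Kitl_OE against 1.98, 0.0793 and 0.978 in shCtrl, a rise of 7.11 ± 0.69 (adjusted p = 0.000539). Nkain4 rose by 6.41, Upk1b by 6.28, the fibulin-like Efemp1 by 4.00 and the transcription factor Bnc1 by 3.68. The defining genes were not all part of it. Wt1 had 20 reads in Kitl_OE and 8 in shCtrl, Lrrn4 had 5 and 3, and Calb2 had 0 in both, and the filter on low counts left them out. Msln (mesothelin) was at 22.2, 45.2 and 44.1 CPM in Kitl_OE, against 60.3, 90.05 and 98.2 in shCtrl and 13.2, 17.04 and 9.53 in Egfp_OE, a log2 change of -1.18 ± 0.30 against shCtrl (adjusted p = 0.0161), a call lost without shCtrl replicate 2 and with no filter on low counts. The part that mesothelial cells may have in these values was not tested.

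Adventitial and progenitor fibroblast markers were mostly lower, with 6 of 27 higher and 15 lower and a median log2 change of -1.63. Cd34, a surface marker of such fibroblasts, was at 0.900, 0.778 and 0.689 CPM in Kitl_OE, against 49.7, 29.3 and 26.8 in shCtrl and 86.6, 55.3 and 81.2 in Egfp_OE, a log2 change of -5.50 ± 0.32 against shCtrl (adjusted p = 0.0001). Ly6c1 fell by 3.59, the alarmin Il33 by 4.22 and the complement regulator Cd55 by 4.48, while the guidance cue Sema3c rose by 3.31. The log2 change of Cd55 ranged from -4.86 to -0.942 over the alternatives run. Ly6 genes are a family of close copies, so the value of Ly6c1 is uncertain. Of 6 tested pericyte markers 1 rose and 4 fell, among them Rgs5 (log2 -3.84) and Rgs4 (log2 -4.76), both brakes on G protein signalling, and the 1 that rose was Pdgfrb. Without Kitl_OE replicate 1, 0 rose and 2 fell, and the Rgs5 call was among those lost.

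Of 7 tested pancreatic epithelial markers 1 rose and 3 fell, and the markers summed to 59.99, 121 and 96.3 TPM in Kitl_OE, against 3126, 1637 and 1351 TPM in shCtrl and 2766, 3470 and 3004 TPM in Egfp_OE. That sum is mostly Spp1 (osteopontin), a secreted protein that fibroblasts also make, at 29.8, 59.8 and 40.0 CPM in Kitl_OE against 1514, 866 and 773 in shCtrl, a log2 change of -4.63 ± 0.39 (adjusted p = 0.000307). The acinar gene Prss1, the endocrine genes Ins1 and Ins2 and the pancreas factor Pdx1 had 0 reads in both lines. Sox9, a factor of ducts and cartilage, fell by 3.34 on the log2 scale. Of 5 tested blood and mast cell markers 3 rose and 0 fell, but the call of Coro1a (adjusted p = 0.0485) was lost under 12 of 17 alternatives. The 19 markers summed to 30.2, 41.5 and 41.8 TPM in Kitl_OE against 17.5, 9.92 and 7.59 TPM in shCtrl. The leucocyte antigen Ptprc had 2 reads in Kitl_OE and 1 in shCtrl, while the lysozyme Lyz2 rose by 4.45 and the receptor Csf1r by 1.66. Of 6 tested endothelial markers 4 rose and 0 fell, or 2 rose without Kitl_OE replicate 1, without shCtrl replicate 2 or under spike-in scaling. The endothelial markers summed to 12.7 to 13.6 TPM in Kitl_OE, against 4.43 to 10.05 TPM in shCtrl, and Erg and Emcn had 0 reads in both lines. Of 12 Schwann and neural markers 3 rose and 6 fell, at sums of 69.7 to 85.02 TPM in Kitl_OE against 79.8 to 109 TPM in shCtrl. Of 15 keratin and junction genes 8 rose and 1 fell (2 fell without shCtrl replicate 1). Their sum went the other way, with 380, 449 and 411 TPM in Kitl_OE against 1876, 1123 and 877 TPM in shCtrl. In Egfp_OE it was 776, 1652 and 1289 TPM. The tight junction gene Cldn1 was at 114, 118 and 62.2 CPM in Kitl_OE against 3.46, 1.23 and 1.06 in shCtrl, a rise of 5.61 ± 0.52 (adjusted p = 0.00047), and Jup (plakoglobin) rose by 2.74. The 1 that fell, the cornified envelope gene Sprr1a, was at 5.13, 9.52 and 8.40 CPM in Kitl_OE against 411, 250.3 and 201 in shCtrl.

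**Figure D3:**
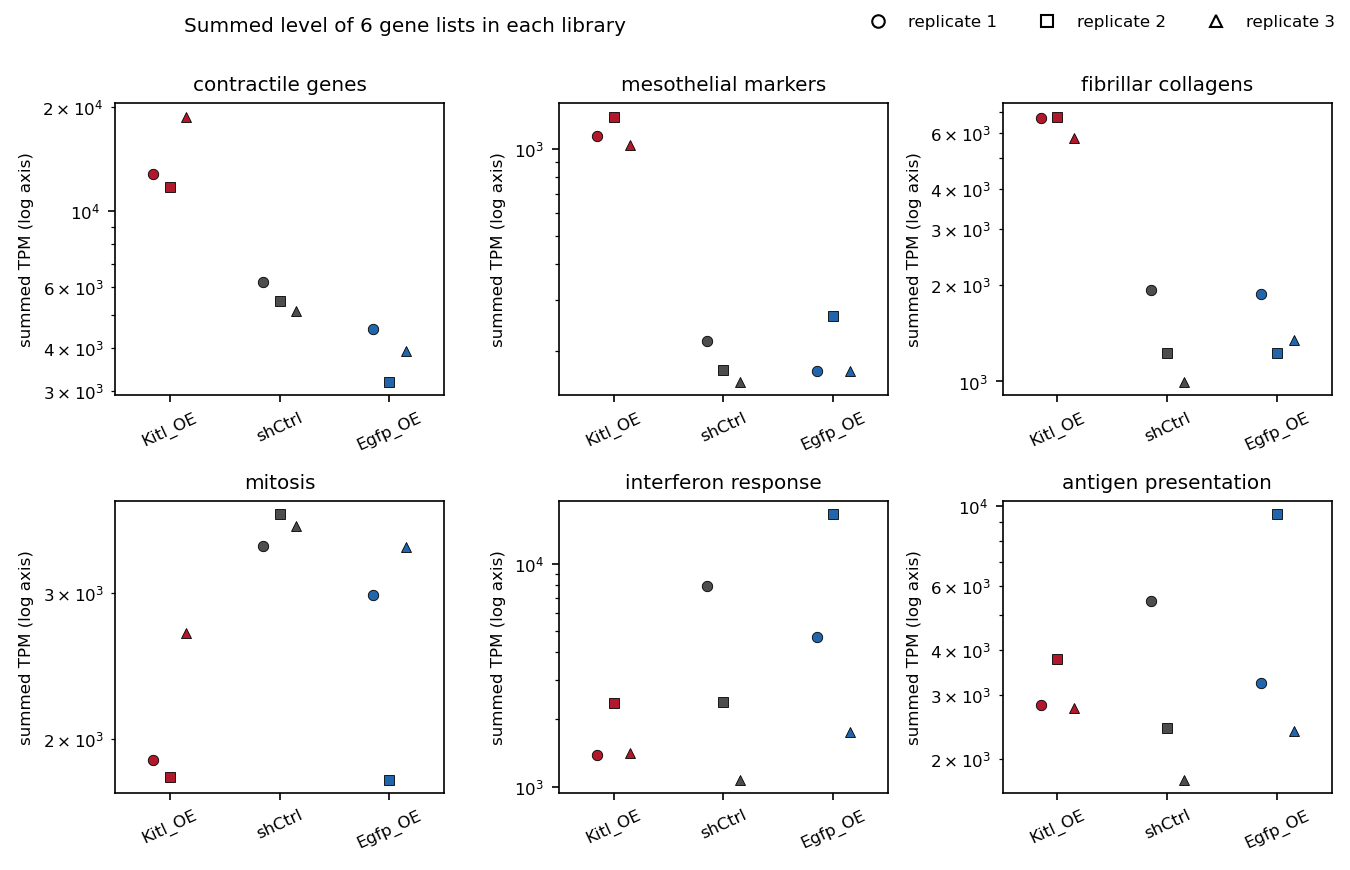
Summed TPM on a log axis of 6 gene lists in each library of Kitl_OE, shCtrl and Egfp_OE. Contractile, mesothelial and collagen sums are higher in every Kitl_OE library than in every control, while interferon sums of Kitl_OE (1392 to 2376 TPM) fall inside the shCtrl range (1070.2 to 7947 TPM).

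Cell division genes were lower in Kitl_OE than in shCtrl. Of 34 mitosis genes 0 rose and 23 fell, with a median log2 change of -0.70, and of 35 DNA replication genes 3 rose and 22 fell, with a median of -0.42. Mitosis genes summed to 1886, 1800 and 2680.2 TPM in Kitl_OE against 3419, 3731 and 3611 TPM in shCtrl. In Egfp_OE they summed to 2983, 1783 and 3410 TPM. DNA replication genes summed to 2968, 3204 and 3452 TPM in Kitl_OE against 3789, 3976 and 3808 TPM in shCtrl. Their sums in Egfp_OE were 3606, 2963 and 4192 TPM. For both lists Egfp_OE replicate 2 lay below every Kitl_OE library. Ccna2 (cyclin A2) was at 72.3, 61.8 and 107 CPM in Kitl_OE, against 220.0, 318 and 355 in shCtrl and 199.6, 143 and 205 in Egfp_OE. Kitl_OE lay below all controls, and the log2 change against shCtrl was -1.91 ± 0.25 (adjusted p = 0.00131). Ect2, which drives cytokinesis, fell by 1.58, the cyclin Ccnb2 by 1.54, the checkpoint kinase Ttk by 1.47 and the proliferation antigen Mki67 by 0.99. Aurka (-0.11), Cdk1 (-0.20) and Tpx2 (0.07) were among the 11 mitosis genes that did not pass. In replication, the loading factor Cdc6 fell by 1.24, thymidine kinase Tk1 by 1.06 and the polymerase Pole by 1.32, whereas the clamp Pcna, also a target of p53, rose by 0.63.

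Targets of p53 and inhibitors of the cell cycle rose in 24 of 33 cases and fell in 3, with a median log2 change of 0.82. Without shCtrl replicate 2, 15 rose, and without shCtrl replicate 1, 5 fell. Under spike-in scaling 11 rose and 5 fell. Cdkn1a, the p21 inhibitor of cyclin-dependent kinases, was at 769, 805 and 598 CPM in Kitl_OE, against 230.2, 105.5 and 79.2 in shCtrl and 176, 270.4 and 162 in Egfp_OE. No library of Kitl_OE overlapped a control, and the rise over shCtrl was 2.36 ± 0.41 (adjusted p = 0.00387). Gdf15, a stress cytokine, was at 139, 166 and 125 CPM in Kitl_OE against 33.5, 12.2 and 7.87 in shCtrl, a rise of 2.97 ± 0.53 (adjusted p = 0.00424). The receptor Eda2r rose by 2.29, Ccng1 by 1.23, the pro-apoptotic Bax by 1.02 and the p53 ubiquitin ligase Mdm2 by 0.89. Trp53 itself fell by 0.43 (adjusted p = 0.0117), and the imprinted inhibitor Cdkn1c fell by 2.96. A p53 half-site was found in the 250 bases before the start of 9 of 26 matched members (34.6%), against 2216 of 27025 genes (8.2%). As the list was chosen for p53 targets, that share is no result of these libraries. Trp53, which fell, and Sesn1, which did not pass (adjusted p = 0.433), were among the 9. Cdkn1a, Mdm2, Ccng1, Bax, Aen, Polk and Ei24 were the others, and they rose. The Cdkn1a window, chr17:29090729-29090978 (plus strand, GRCm38.p6), holds 2 half-sites in capitals. It is a window before a RefSeq start of the inhibitor with the highest CPM in Kitl_OE among those named here.
Cdkn1a: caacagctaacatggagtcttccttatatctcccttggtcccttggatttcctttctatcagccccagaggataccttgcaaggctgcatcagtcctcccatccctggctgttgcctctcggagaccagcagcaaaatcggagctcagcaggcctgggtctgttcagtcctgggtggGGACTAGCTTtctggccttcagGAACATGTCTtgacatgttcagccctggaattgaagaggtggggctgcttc

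Genes of fetal growth and imprinting were mostly lower, 2 of 26 higher and 15 lower, with a median log2 change of -1.21. Dlk1, a Notch ligand relative of preadipocytes and fetal tissue, was at 2.11, 2.11 and 2.31 CPM in Kitl_OE, against 162, 168 and 156 in shCtrl and 292, 470.3 and 670.1 in Egfp_OE. Kitl_OE was at 1.34% of the shCtrl level, a log2 change of -6.24 ± 0.10 (adjusted p = 9.26e-07). Rian and Meg3, non-coding RNAs of the same imprinted cluster, fell by 5.27 and 4.74. The size of these falls depended on the setting. Over the alternatives run, the log2 change ranged from -6.14 to -0.932 for Rian and from -5.1 to -0.589 for Meg3. Hmga2, a chromatin protein of fetal growth, was at 39.0, 47.0 and 91.3 CPM in Kitl_OE against 362, 526 and 582 in shCtrl, a log2 change of -3.07 ± 0.37 (adjusted p = 0.001). Lin28b, which blocks let-7 maturation, had 3 reads in Kitl_OE, a count ratio of 35.1 in favour of shCtrl (exact counting interval 11.7 to 173). Igf2, the fetal insulin-like growth factor, rose by 3.90 and was at 3.68, 8.66 and 5.10 CPM in Kitl_OE against 0.725, 0.357 and 0 in shCtrl. When shCtrl replicate 1 was left out, 5 members rose in place of 2.

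Transcription factors of lineage and position differed by large amounts in both directions: of 39 lineage factors 11 rose and 17 fell, and of 29 Hox and positional genes 6 rose and 12 fell, or 0 and 14 under spike-in scaling. Sox2, a pluripotency and neural factor, was at 0.117, 0.0741 and 0.103 CPM in Kitl_OE, against 13.4, 23.8 and 27.7 in shCtrl and 5.88, 4.48 and 3.40 in Egfp_OE, a log2 change of -7.74 ± 0.42 against shCtrl (adjusted p = 7.93e-05). Kitl_OE was lowest, Egfp_OE between, and no group overlapped another. The neural and craniofacial factors Six3 (by 6.95), Alx1 (by 7.05) and Msx1 (by 6.56) fell in the same order of lines. Zic2 had 1 read in Kitl_OE, a count ratio of 591 in favour of shCtrl (exact counting interval 106 to 23400), and Hoxd8 had 3 reads, a ratio of 277 (94.5 to 1347). Foxf1, a factor of gut mesenchyme, was at 100.4, 101 and 95.9 CPM in Kitl_OE against 16.5, 5.99 and 2.72 in shCtrl, a rise of 3.51 ± 0.60 (adjusted p = 0.00355). Gata6 rose by 2.48, Hand2 by 2.52 and Prdm6, a smooth muscle repressor, by 4.44. Of the lineage factors, 7 rose in each fit that left out 1 library other than shCtrl replicate 1. Of the Hox and positional genes, 2 rose without Kitl_OE replicate 2 or shCtrl replicate 2, and 3 without Kitl_OE replicate 1 or shCtrl replicate 3.

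Interferon-stimulated genes were lower on the median but with a wide spread. Of 50 tested, 2 rose and 21 fell, with a median log2 change of -2.20. Their sums were 1392, 2376 and 1415 TPM in Kitl_OE, against 7947, 2385 and 1070.2 TPM in shCtrl and 4685, 16617 and 1761 TPM in Egfp_OE. The groups overlapped: shCtrl replicate 3 lay below all of Kitl_OE, and shCtrl replicate 1 and Egfp_OE replicate 2 were far above the rest of their lines. Isg15, a ubiquitin-like protein, was at 11.7, 24.6 and 11.3 CPM in Kitl_OE, against 232, 65.8 and 22.8 in shCtrl and 169, 1066 and 38.6 in Egfp_OE. Kitl_OE replicate 2 lay above shCtrl replicate 3, and the log2 change was -2.79 ± 0.85 (adjusted p = 0.0307). Rsad2 (viperin) was at 1.92, 2.93 and 1.55 CPM in Kitl_OE against 86.5, 23.5 and 8.21 in shCtrl, a log2 change of -4.24 ± 0.91 (adjusted p = 0.0084). The number that fell was 15 without shCtrl replicate 1, 15 without shCtrl replicate 2, 39 without shCtrl replicate 3, and 5, 9 and 6 without Kitl_OE replicates 1, 2 and 3. The number that rose was 4 without shCtrl replicate 1 and 1 without any other library, and the median log2 change was -0.88 without shCtrl replicate 1. Under spike-in scaling 0 rose and 11 fell. The number that fell was 9 with the replicate block, 3 with limma-voom and 0 with no filter on low counts. The Rsad2 call was lost with limma-voom and with no filter on low counts.

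Antigen presentation genes showed the same spread, with 1 of 21 higher and 6 lower. H2-K1, a class I heavy chain, was at 6.77, 9.89 and 10.3 CPM in Kitl_OE, against 245, 94.4 and 55.3 in shCtrl and 87.8, 786 and 53.4 in Egfp_OE, without overlap. The log2 change against shCtrl was -3.90 ± 0.59 (adjusted p = 0.0024). The class I gene H2-Q4 fell by 4.65, and the immunoproteasome subunit Psmb8 fell by 4.08, a call lost under 4 alternatives, among them the replicate block and leaving out Kitl_OE replicate 1 (adjusted p up to 0.0877). Class I genes are close copies whose counts are uncertain. B2m, the class I light chain, did not pass (log2 0.33, adjusted p = 0.443). The count of fallen members was 14 without shCtrl replicate 3 and 3 without Kitl_OE replicate 1, and 6 members rose without shCtrl replicate 1.

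Interferon-activated factors bind the core of the interferon-stimulated response element, here GAAA, any 2 bases and GAAA, searched on both strands with overlaps allowed. It was found in the 250 bases before the start of 19 of 40 matched interferon genes (47.5%) against 936 of 27025 genes (3.46%). Of these 19, Ifit1, Isg15, Rsad2, Oas1a, Oas1g, Oas3, Gbp3, Gbp5, Gbp7 and Cxcl10 fell, and Ifit1bl1 rose (log2 1.19). Ifit3, Ifit3b, Stat2, Gbp2, Irgm1, Irgm2, Igtp and Bst2 held it too and did not pass. Isg15, chr4:156200819-156201068 (minus strand), held 3 overlapping matches, and Oas1a, an antiviral synthetase at chr5:120907526-120907775 (minus strand), held 2, on GRCm38.p6 with matches in capitals. They are shown for comparison, as genes of the list that fell with different overlap of the groups, since Oas1a was at 0.744, 1.56 and 1.45 CPM in Kitl_OE against 42.4, 11.2 and 4.55 in shCtrl, without overlap.
Isg15: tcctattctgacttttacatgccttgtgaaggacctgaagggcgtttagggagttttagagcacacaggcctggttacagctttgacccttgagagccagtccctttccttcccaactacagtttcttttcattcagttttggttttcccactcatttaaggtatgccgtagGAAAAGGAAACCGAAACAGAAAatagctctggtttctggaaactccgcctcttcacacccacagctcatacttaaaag
Oas1a: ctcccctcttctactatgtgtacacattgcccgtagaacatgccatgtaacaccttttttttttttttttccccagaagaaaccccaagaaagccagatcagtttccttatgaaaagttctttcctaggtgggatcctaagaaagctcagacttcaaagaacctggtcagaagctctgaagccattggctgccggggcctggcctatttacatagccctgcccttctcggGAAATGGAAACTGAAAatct

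**Figure D4:**
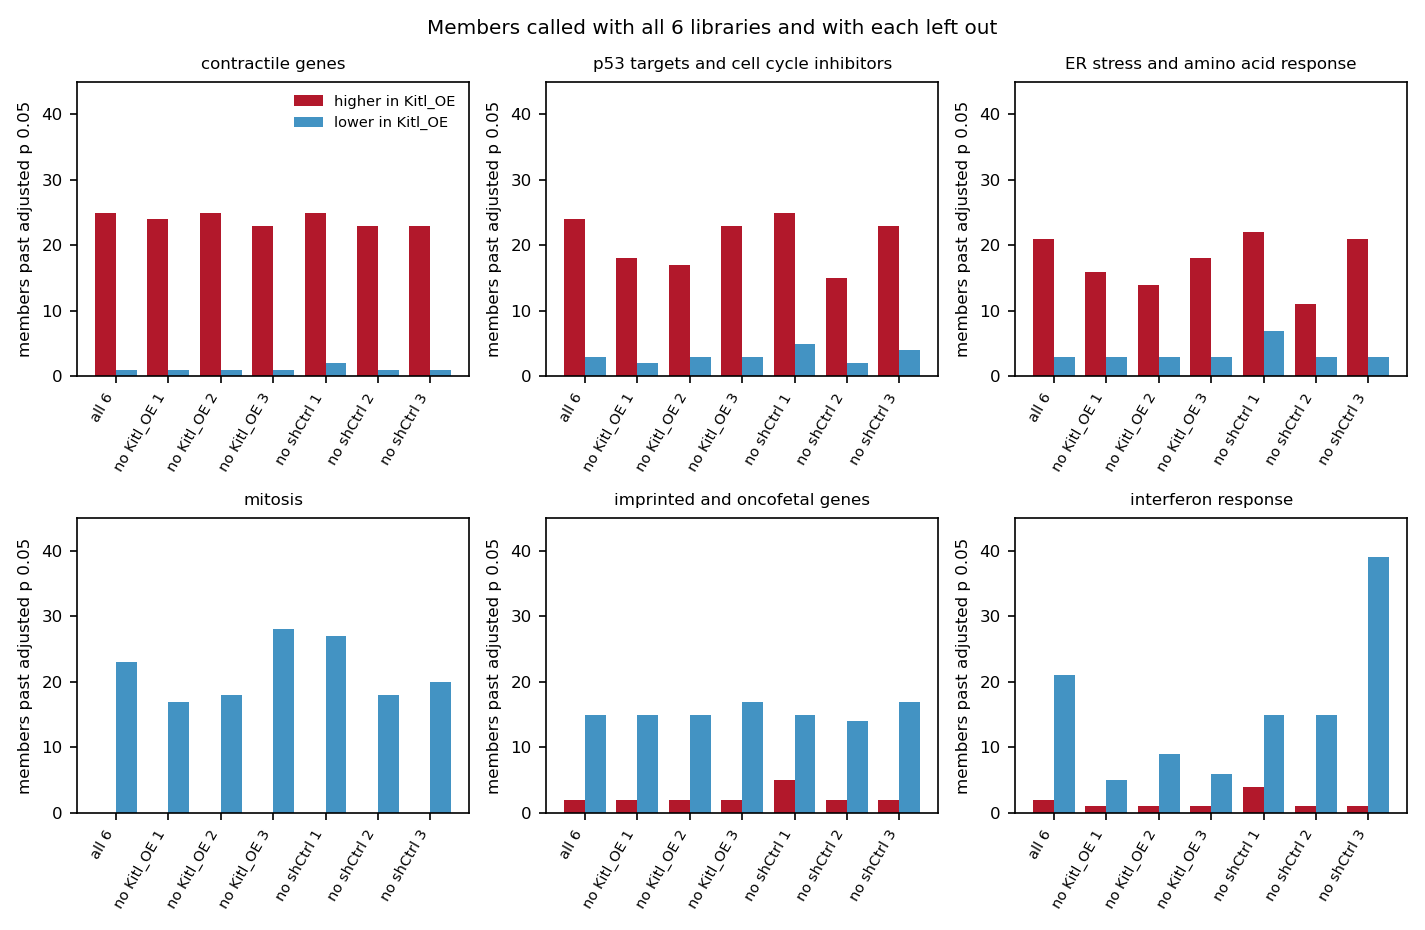
Members of 6 gene lists called higher or lower in Kitl_OE than in shCtrl with all 6 libraries and with each library left out. Contractile genes stay at 23 to 25 higher, whereas the interferon genes called lower range between 5 and 39.

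Genes of the endoplasmic reticulum stress and amino acid response rose in 21 of 36 cases and fell in 3, with a median log2 change of 0.37. Without shCtrl replicate 2, 11 rose, without shCtrl replicate 1, 7 fell, and under spike-in scaling 7 rose and 7 fell. Chac1, which breaks down glutathione, was at 101, 118 and 90.6 CPM in Kitl_OE, against 27.6, 25.8 and 21.1 in shCtrl and 23.04, 36.3 and 18.5 in Egfp_OE, without overlap and with a rise over shCtrl of 2.03 ± 0.14 (adjusted p = 0.000174). Trib3, a pseudokinase, rose by 2.80, the factor Ddit3 (CHOP) by 1.66, Herpud1 by 1.08 and asparagine synthetase Asns by 0.65. Atf4, the factor of this response, was at 389, 412 and 418 CPM in Kitl_OE against 274, 342 and 356 in shCtrl and did not pass (log2 0.30, adjusted p = 0.0584). The lipoprotein receptor Vldlr fell by 2.42. The core TGATGNAA of the amino acid response element was found on either strand in 8 of 34 matched members (23.5%) against 1056 of 27025 genes (3.91%). Vldlr, which fell, was among them, as was Slc7a11, which did not pass (log2 -0.23, adjusted p = 0.426). Chac1, Herpud1, Atf3, Asns, Nupr1 and Pycr1 held it and rose. The Chac1 window, chr2:119350992-119351241 (plus strand, GRCm38.p6), holds the core 193 bases before the start, on the other strand, in capitals.
Chac1: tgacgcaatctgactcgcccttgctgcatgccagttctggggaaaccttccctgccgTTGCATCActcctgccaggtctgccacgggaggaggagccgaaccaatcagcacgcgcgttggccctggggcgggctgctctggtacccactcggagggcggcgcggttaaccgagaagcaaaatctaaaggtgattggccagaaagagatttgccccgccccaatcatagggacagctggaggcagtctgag

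Signalling genes were divided. Cxcl12, a chemokine of stroma, was at 1242, 1172 and 1105 CPM in Kitl_OE, against 393, 238 and 205 in shCtrl and 575, 913 and 575 in Egfp_OE, a rise over shCtrl of 2.05 ± 0.25 (adjusted p = 0.00101). Egfp_OE lay between, and Kitl_OE was above every control library. Il6, at 0.900, 1.000 and 2.44 CPM in Kitl_OE against 3.43, 1.82 and 2.38 in shCtrl, did not pass (log2 -0.83, adjusted p = 0.163), and its groups overlapped. Eng (endoglin), a TGF-beta co-receptor and stromal surface protein, was at 249, 242 and 236 CPM in Kitl_OE against 88.4, 80.5 and 79.2 in shCtrl, a rise of 1.53 ± 0.08 (adjusted p = 7.83e-05). Of 32 TGF-beta and BMP genes 8 rose and 9 fell, among them Bmp4, which rose by 4.05, its antagonist Chrd, which rose by 3.73, and the activin subunit Inhbb, which fell by 3.41. Of 31 Wnt and Hedgehog genes 12 rose and 11 fell, with a median log2 change of 0.18, and 7 rose without Kitl_OE replicate 1, Kitl_OE replicate 2 or shCtrl replicate 2. Under spike-in scaling 5 rose and 13 fell. The ligand Wnt9a rose by 3.35 and the Wnt feedback inhibitor Nkd1 by 3.23, whereas the Wnt antagonists Sfrp1 (by 4.14) and Sfrp2 (by 5.17), the Wnt factor Lef1 (by 4.46) and the Hedgehog inhibitor Hhip (by 5.53) fell. Over the alternatives run, the log2 change ranged from -4.75 to -1.08 for Lef1 and from -5.91 to -1.28 for Hhip. Of 45 growth factors and receptors 14 rose and 17 fell. Angpt1 (by 4.71) and Gdnf (by 4.24) fell, and Fgf18 (5.03) and Vegfa (1.25) rose.

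Of 20 genes activated by YAP and TEAD 12 rose and 2 fell, or 6 and 4 under spike-in scaling, and 4 and 1 in the fit over all 12 libraries. Without Kitl_OE replicate 1, Kitl_OE replicate 2 or shCtrl replicate 2, 1 fell, and without shCtrl replicate 1, 3 fell. Ctgf, a matricellular target, was at 283, 394 and 475 CPM in Kitl_OE, against 119, 214 and 236 in shCtrl and 46.8, 35.5 and 23.4 in Egfp_OE, a rise over shCtrl of 1.00 ± 0.29 (adjusted p = 0.024). That call was lost under 7 of 18 alternatives, among them leaving out Kitl_OE replicate 2, Kitl_OE replicate 3 or shCtrl replicate 2, and the highest adjusted p was 0.0884. Ankrd1, another target, did not pass (log2 -0.23, adjusted p = 0.464).

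Of 23 genes of retinoid and lipid storage 5 rose and 8 fell, or 9 rose without shCtrl replicate 1. Aldh1a1, a retinaldehyde dehydrogenase, was at 329, 281 and 291 CPM in Kitl_OE, against 27.5, 11.4 and 7.40 in shCtrl and 3.28, 6.09 and 1.79 in Egfp_OE, a rise over shCtrl of 4.24 ± 0.49 (adjusted p = 0.000963). Crabp1, which binds retinoic acid, was at 1.33, 1.63 and 2.03 CPM in Kitl_OE against 83.6, 71.0 and 71.0 in shCtrl, a log2 change of -5.51 ± 0.18 (adjusted p = 2.61e-05). The receptor Rarb fell by 3.57 and the fatty acid carrier Fabp4 by 4.83, while the lipase Mgll rose by 5.75. Of 32 genes of cholesterol and fatty acid synthesis 3 rose and 10 fell, with a median log2 change of -0.03, while 11 rose without shCtrl replicate 1 and 1 rose without Kitl_OE replicate 1, Kitl_OE replicate 2 or shCtrl replicate 2. Fatty acid synthase Fasn was at 314, 335 and 347 CPM in Kitl_OE against 904, 1108 and 1111 in shCtrl, a log2 change of -1.67 ± 0.11 (adjusted p = 0.000162). Acaca, the enzyme before it, fell by 1.06, and the sterol isomerase Ebp rose by 1.06. Of 35 genes of glycolysis and hypoxia 8 rose and 8 fell, or 4 and 19 under spike-in scaling, and 13 fell without shCtrl replicate 1 and 5 without Kitl_OE replicate 1 or 2. Lactate dehydrogenase Ldha fell by 1.33 and Pgk1 by 1.11, and the hypoxia gene Ndrg1 rose by 2.09. Of the NRF2 and metallothionein genes 13 of 24 rose and 5 fell, or 2 fell without Kitl_OE replicate 1 and 3 without Kitl_OE replicate 2 or shCtrl replicate 2. Those that rose include the quinone reductase Nqo1, by 2.31, and the epoxide hydrolase Ephx1, by 2.42.

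The overexpression control gave a second set of values for the same Kitl_OE libraries, which the comparisons share. Of 14410 genes tested between Kitl_OE and Egfp_OE, 4159 passed (28.9%), 1946 higher (13.5%) and 2213 lower (15.4%). When Egfp_OE replicate 2 was left out, 8107 of 14773 passed, 4032 higher and 4075 lower. Without Kitl_OE replicate 1, 1007 were higher and 1101 lower of 14941, and without Kitl_OE replicate 2, 1040 and 1176 of 14908. Under spike-in scaling 700 were higher and 902 lower of 14410. Member counts from these fits are to be read against the totals of the same fit. Against Egfp_OE, 21 of 30 contractile genes rose and 0 fell, with a median log2 change of 1.58, and Acta2 rose by 4.21 (adjusted p = 0.000807). Of 9 mesothelial genes 7 rose and 0 fell, and of 10 fibrillar collagens 6 rose and 1 fell, with 0 to 3 fallen over the fits that left out 1 library and 3 without Egfp_OE replicate 2. Gpm6a rose by 9.75 and Col1a1 by 2.51. Mitosis genes gave 0 risen and 7 fallen of 34, with a median of -0.22, but 17 fell without Egfp_OE replicate 2 and 3 without Kitl_OE replicate 1 or 2. DNA replication genes gave 1 risen and 12 fallen of 35. Without Egfp_OE replicate 2, 5 of them rose and 20 fell, and without Kitl_OE replicate 1 or 2, 4 fell. Of 36 genes of the endoplasmic reticulum response 6 rose and 1 fell, or 20 and 3 without Egfp_OE replicate 2 and 3 and 1 without Kitl_OE replicate 1 or 2. Of 33 p53 targets 18 rose and 3 fell, and 9 rose without Kitl_OE replicate 1 or 2. Under spike-in scaling the counts against Egfp_OE were 14 risen and 0 fallen for contractile genes and 6 risen and 1 fallen for p53 targets. They were 3 risen and 0 fallen for fibrillar collagens and 3 risen and 1 fallen for the endoplasmic reticulum response. Mitosis had 0 risen and 1 fallen, and DNA replication 0 risen and 0 fallen. Cxcl12 did not pass against Egfp_OE (log2 0.71, adjusted p = 0.0659). Dlk1 fell by 7.82 and Cd34 by 6.60 against Egfp_OE.

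Some genes stood on opposite sides of the control lines. Msln was 1.43 higher than in Egfp_OE on the log2 scale (adjusted p = 0.0224) and 1.18 lower than in shCtrl (log2 -1.18). Thbd (thrombomodulin, an anticoagulant receptor) was at 183, 176 and 194 CPM in Kitl_OE, against 212, 242 and 238 in shCtrl and 133, 89.5 and 99.4 in Egfp_OE. No group overlapped another, and the log2 changes were -0.35 against shCtrl and 0.73 against Egfp_OE. The call against shCtrl was lost under 5 of 18 alternatives, namely both fits with libraries of the other lines and those without Kitl_OE replicate 1, Kitl_OE replicate 2 or shCtrl replicate 2, with adjusted p up to 0.209. Chmp4c, of the membrane-cutting ESCRT machinery, gave log2 changes of -0.75 against shCtrl and 0.66 against Egfp_OE. For these genes the sign of the Kitl_OE difference changed with the control line, and the adjusted p against shCtrl and against Egfp_OE were 0.00478 and 0.0312 for Chmp4c and 0.0128 and 0.024 for Thbd.

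**Figure D5:**
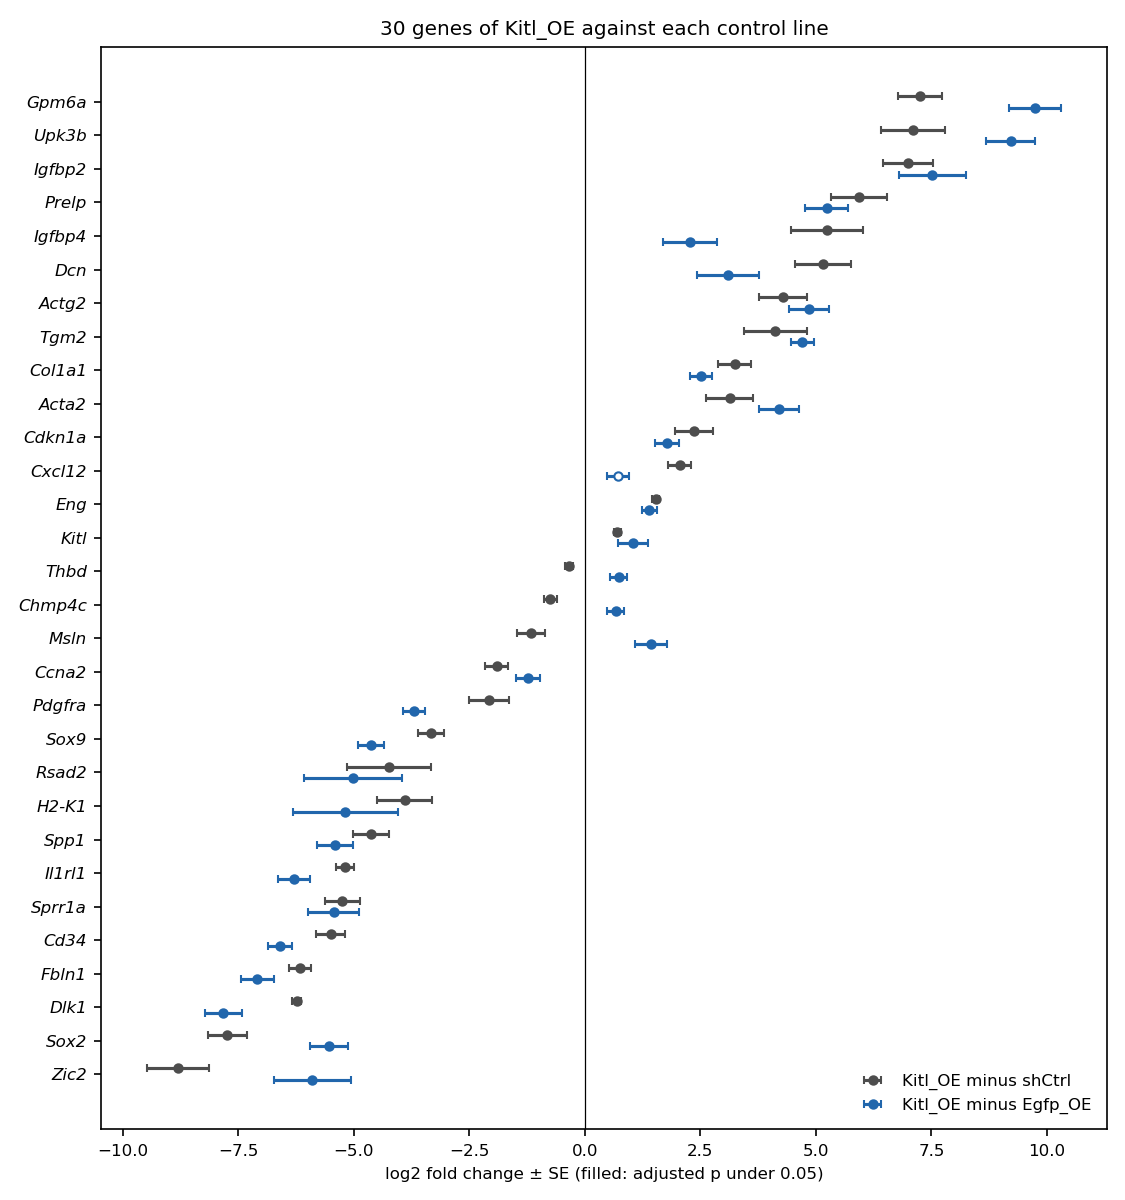
Log2 fold change with SE of 30 genes in Kitl_OE against shCtrl and against Egfp_OE, with filled markers at an adjusted p under 0.05. The comparisons share the Kitl_OE libraries, Msln lies on opposite sides of 0 in them, and the Cxcl12 marker against Egfp_OE is open.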

How the data were processed

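PolyA RNA of 12 libraries was sequenced, 3 per line. Raw gene counts deposited by the authors were made with STAR 2.5.2b and featureCounts of Subread 1.5.2 on GRCm38 per the submitters' processing notes, which also name DESeq2. A second table that the authors deposited holds TPM values (counts per gene length at a fixed total). The sources used here state neither the gene length, the strand setting nor the annotation release, and values of overlapping, antisense and near-identical genes are uncertain for that reason. Both tables held 49763 rows, 92 of them ERCC spike-in RNAs left out of sizes and fits.

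Counts of the 3 Kitl_OE and 3 shCtrl libraries were fitted alone in edgeR 4.0.16 (R 4.3.3): filterByExpr by group, TMM scaling, robust quasi-likelihood test, 1 coefficient per group, Benjamini-Hochberg adjustment over all genes tested, threshold 0.05. Egfp_OE was compared with shCtrl and Kitl_OE with Egfp_OE in the same way, each on its own 6 libraries. The standard error is the log2 fold change over the square root of F. "Rose" and "fell" are used for genes past the threshold. CPM is shown with TMM factors computed over all 12 libraries. TPM sums were not tested. Count ratios carry exact 95% intervals for counting error alone. The fit was also run on simulated counts with few changed genes, the same spread for every gene and no outlying library. In these data 53.3% of genes were called, so that run does not show how the fit behaves here.

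Gene names came from the tables, and 49412 of 49671 gene IDs matched GENCODE M21, which gave coordinates. Promoter sequences are from RefSeq on GRCm38.p6. A gene counted as matched if the window of any of its RefSeq starts held a match, and only windows with a match are shown. The members, the 40 lists (1218 genes) and the tests were chosen with earlier results of these data known, so list counts are descriptions. Named genes were 9 fixed genes, up to 5 members per list with the largest changes past the threshold, the 10 highest and 10 lowest log2 fold changes at a mean CPM of at least 5 without overlap (predicted gene models left out), the 6 highest and 6 lowest TPM differences, and genes with opposite calls against the control lines. Other genes in the text were picked with their values in view. The alternatives run were other scalings, filters and tests, fits over more libraries, a replicate block, and each library left out. Stricter thresholds were applied only to the counts of all genes between Kitl_OE and shCtrl, and not to gene lists or named genes.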

Additional observations from a re-analysis of the deposited data

How the results depend on the processing

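Of 7593 genes called between Kitl_OE and shCtrl, the count was 4932 in the fit over all 12 libraries, 4778 at an adjusted p of 0.01 and 3173 with a log2 change of at least 1. The number higher was 2413, 2346 and 1600 under these settings and 1609 under spike-in scaling, and the number lower was 2519, 2432 and 1573. Leaving out 1 library gave 5455 (without shCtrl replicate 2) to 9170 (without shCtrl replicate 1). Between Egfp_OE and shCtrl, DESeq2 called 610 genes and the fit over all 12 libraries 191, while every edgeR fit that left out 1 library called 0. Between Kitl_OE and Egfp_OE, spike-in scaling gave 1602, and leaving out 1 library gave 2108 (without Kitl_OE replicate 1) to 8107 (without Egfp_OE replicate 2). The cause of these differences was not tested, apart from the stricter thresholds. Same-numbered Kitl_OE and shCtrl libraries deviated from their groups with correlations of 0.0341, -0.278 and 0.332, and the other pairs gave -0.429 to 0.437. With 3 libraries per group, these values cannot tell whether same-numbered libraries were paired. The fit with the replicate block called 7287. Of 216 named genes with a test, 175 kept their call under every alternative fit, and 0 of 3828 pairs of gene and setting reversed a call. The stricter thresholds were applied only to the counts of all genes, so they are not among these settings. Kitl, with a log2 change of 0.70, is counted as kept although it lies below a log2 change of 1. Genes with few reads, Kit and Wt1 among them, were left out by the filter on low counts.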
